A study of Rattus norvegicus with 40 samples.

Results

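The comparison described here sets 10 min against 0 min within the ischemia+reperfusion arm of a study of cultured heart muscle cells. The data are 8 of the 40 arrays of the series, 4 labelled 10 min of ischemia+reperfusion and 4 labelled 0 min of ischemia+reperfusion, chosen by those labels. The cells of both groups were neonatal rat ventricular myocytes (NRVMs), primary cells of newborn rat heart. The study used coverslip hypoxia, a model in which a glass coverslip laid over the cells limits their access to oxygen and fresh medium. Each group held 2 duplicates from each of 2 cell preparations, and both preparations supplied both groups. The labels do not give the rat strain, the length of reperfusion, or which step of the protocol the minutes time, and they do not say what was done to the 0 min cells. They also do not say whether duplicates were separate cultures, so p-values measure the spread between these samples, which may be technical.

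Cells short of oxygen stabilise the hypoxia-inducible factor (HIF), because the prolyl hydroxylases that mark it for destruction need oxygen. HIF then raises genes for glucose uptake, glycolysis, blood vessel growth and mitochondrial turnover. Cholesterol synthesis is governed by another factor, SREBP, which INSIG proteins hold back in the endoplasmic reticulum when sterols are plentiful. Several steps of sterol synthesis use molecular oxygen. In the heart, reperfusion returns oxygen to starved muscle and is known for a burst of oxidants.

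Values are log2(value + 16) of normalized probe set intensities. Differences are given as 10 min minus 0 min with the standard error (SE) of a limma fit over all 10 groups of the series, with n = 2 preparations a group after duplicates were averaged. Adjusted p-values are limma's with Benjamini-Hochberg adjustment over the 18625 probe sets tested, and a probe set passed at an adjusted p under 0.05. Where values of single arrays are listed, they run preparation 1 duplicate 1, preparation 1 duplicate 2, preparation 2 duplicate 1, preparation 2 duplicate 2. The median SE was 0.118 log2 units, which gives a 95% interval of 0.258 to either side. This precision is limited by the 2 preparations a group.

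The culture was checked against markers of the cell types it could hold. The summed intensity of 9 cardiomyocyte markers was 81243.6 to 88477.6 in the 10 min arrays and 78886.7 to 82907.7 in the 0 min arrays. The 9 fibroblast markers ran from 34755.1 to 43289.9 at 10 min and 37577.2 to 46639.8 at 0 min, and the 10 macrophage and leukocyte markers from 4850.53 to 7034.4 at 10 min and 5628.51 to 6767.33 at 0 min. The sums of 6 endothelial and 6 smooth muscle markers also overlapped between the groups, and 0 of 3 erythroid markers on the array were above the filter. All 9 fibroblast markers had a difference below 0 (median -0.09), but 0 passed the test. Most of this lay in preparation 2, where all 9 were below 0 with a median of -0.24, against 5 of 9 and -0.02 in preparation 1. The macrophage markers had a median of -0.32 in preparation 2, with 9 of 10 below 0, and 0.09 in preparation 1. The duplicates of preparation 2 differed among themselves. Relative to the 0 min mean of each gene, their fibroblast medians were -0.16 and -0.25 at 10 min and -0.18 and 0.15 at 0 min. Their macrophage medians were -0.18 and -0.49 at 10 min and -0.15 and 0.11 at 0 min. The part of these markers in the results below was not tested. In such bulk samples, fewer cells of a type and less RNA per cell cannot be told apart.

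One array stood apart from its label. The centred values of the 10 min array of preparation 2, duplicate 1, correlated by 0.112 with the other arrays of its group and by 0.429 with the 0 min arrays. For the other 10 min arrays, the correlation with their own group was 0.254, 0.295 and 0.263, and with the 0 min arrays it was -0.05, 0.04 and -0.10. All 4 arrays at 0 min lay nearest to their own group. Of the other 10 min arrays, duplicate 1 of preparation 1 and duplicate 2 of preparation 2 lay slightly nearer to the 30 min arrays of ischemia+reperfusion, with correlations of 0.306 and 0.277, than to their own group. The deposited median of the deviating array, 171, was the highest of the 8, which ran from 132. Results are therefore given with all 8 arrays and without it. The array was set aside because of where it lies, so a larger number of calls without it is no independent evidence, and preparation 2 at 10 min then rests on 1 array that is assumed to vary like the averages.

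With all 8 arrays, 7 probe sets passed, 0.0376% of those tested. Of these, 4 were higher at 10 min (0.0215%) and 3 were lower (0.0161%). At an adjusted p under 0.1, 130 passed (0.698%), and at an unadjusted p under 0.05, 2101 probe sets differed (11.3%), 1002 higher and 1099 lower. Without the deviating array, 348 passed (1.87%), 219 higher and 129 lower, and all 7 were among them. The number passing also depended on other arrays. With duplicate 2 of preparation 2 left out at 10 min, 1 passed. With duplicate 2 of preparation 1 left out at 0 min, 2 passed. Dropping any of the remaining 0 min arrays gave 50 (preparation 1), 16 and 37 (preparation 2, duplicates 1 and 2). With the preparation block left out of the fit, 2 passed, Mapt and Ift43. The 7 calls used the spread of all 10 groups: by limma on the ischemia+reperfusion groups alone, or on the 8 arrays alone, 0 passed, with 2178 and 2743 probe sets at an unadjusted p under 0.05. On the deposited scale, without normalization, 28 passed as higher and 1 as lower, and the median difference of all probe sets was 0.10 there, against -0.01.

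The 3 named genes that rose belong to none of the gene lists used here. Mapt encodes tau, a protein that binds microtubules. One of its probe sets, 1387071_a_at, read 7.10, 7.63, 7.33 and 8.03 at 10 min, against 5.98, 4.0, 4.35 and 4.0 at 0 min. Every 10 min array was above every 0 min array, and 2 of the 0 min values lay at the floor of the scale. It rose (adjusted p = 0.00661), but with the 0 min values at or near the floor the size of the rise is set by the number added before the log: the fitted difference was 2.94 with 16 added, 4.23 with 4 and 1.64 with 64. When duplicate 2 of preparation 1 was dropped at 0 min, the adjusted p was 0.0579. The gene's other probe sets, 1368137_at and 1368138_at, differed by 0.79 and 0.34 and did not pass. For the probe set that passed, the 0 min arrays of ischemia+reperfusion were themselves lower than the 0 min arrays of ischemia alone (adjusted p = 0.0114, with a size that the floor also limits); 0.177% of all probe sets passed as lower in that comparison.

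Ift43, a part of the transport complex of primary cilia, read 10.58, 10.75, 10.55 and 10.99 at 10 min, against 10.08, 10.17, 10.20 and 9.96 at 0 min. The groups did not overlap, and the deviating array was the lowest of the 10 min arrays, just under duplicate 1 of preparation 1. The gene rose by 0.62 ± 0.07 (adjusted p = 0.0158, and 0.0548 on the deposited scale). Phf24, a gene with a PHD finger domain, passed on 1 of its 2 probe sets, 1394402_at, which read 8.28, 8.37, 7.51 and 8.18 at 10 min, against 7.21, 6.61, 6.86 and 5.88 at 0 min. Its groups did not overlap either, and it rose by 1.45 ± 0.17 (adjusted p = 0.0158, and 0.163 without the preparation block). The brighter probe set of Phf24, 1393004_at, differed by 1.73 and did not pass with all 8 arrays (adjusted p = 0.0545). When duplicate 2 of preparation 2 was dropped at 10 min, the adjusted p of both genes was 0.134, and that of Phf24 was 0.0579 when duplicate 2 of preparation 1 was dropped at 0 min. The remaining probe set that rose, 1374149_at, has no gene name in the annotation used here and differed by 0.84.

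The genes that fell all encode enzymes of cholesterol synthesis. Fdft1, squalene synthase, makes the first step committed to sterols. Its brighter probe set, 1367839_at, read 9.49, 9.72, 10.37 and 9.90 at 10 min, against 10.41, 10.46, 10.79 and 10.57 at 0 min. On this probe set the groups did not overlap, although the deviating array came close to the lowest 0 min array. It fell by 0.69 ± 0.09 on the log2 scale (adjusted p = 0.0311). The other probe set of Fdft1, 1389906_at, differed by -0.64 and did not pass (adjusted p = 0.0726), and there the deviating array, at 9.55, overlapped the 0 min arrays, which started at 9.36. Dhcr7, which makes cholesterol from 7-dehydrocholesterol, read 9.12, 9.30, 9.83 and 9.43 at 10 min, against 9.86, 9.98, 10.30 and 10.11 at 0 min. The groups did not overlap for Dhcr7, and it fell by 0.64 ± 0.08 (adjusted p = 0.0241).

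Cyp51, the oxygen-using demethylase of lanosterol, passed on 1 of its 2 probe sets. The probe set 1387020_at read 9.79, 9.98, 10.41 and 10.04 at 10 min, against 10.36, 10.81, 11.00 and 10.77 at 0 min. The deviating array overlapped the lowest 0 min array, which was of the other preparation. The probe set fell by 0.68 ± 0.09 (adjusted p = 0.0211). The brighter one, 1367979_s_at, differed by -0.48 and did not pass (adjusted p = 0.417). These 3 calls rested on the preparation block: without it, the adjusted p was 0.489 for Fdft1, 0.471 for Dhcr7 and 0.233 for Cyp51. For these genes in that order, the adjusted p was 0.26, 0.167 and 0.157 when duplicate 2 of preparation 2 was dropped at 10 min, and 0.0556, 0.0556 and 0.0691 when duplicate 2 of preparation 1 was dropped at 0 min. On the deposited scale it was 0.0922, 0.128 and 0.147. For Fdft1 it was 0.0514 when duplicate 1 of preparation 2 was dropped at 0 min.

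**Figure D1:**
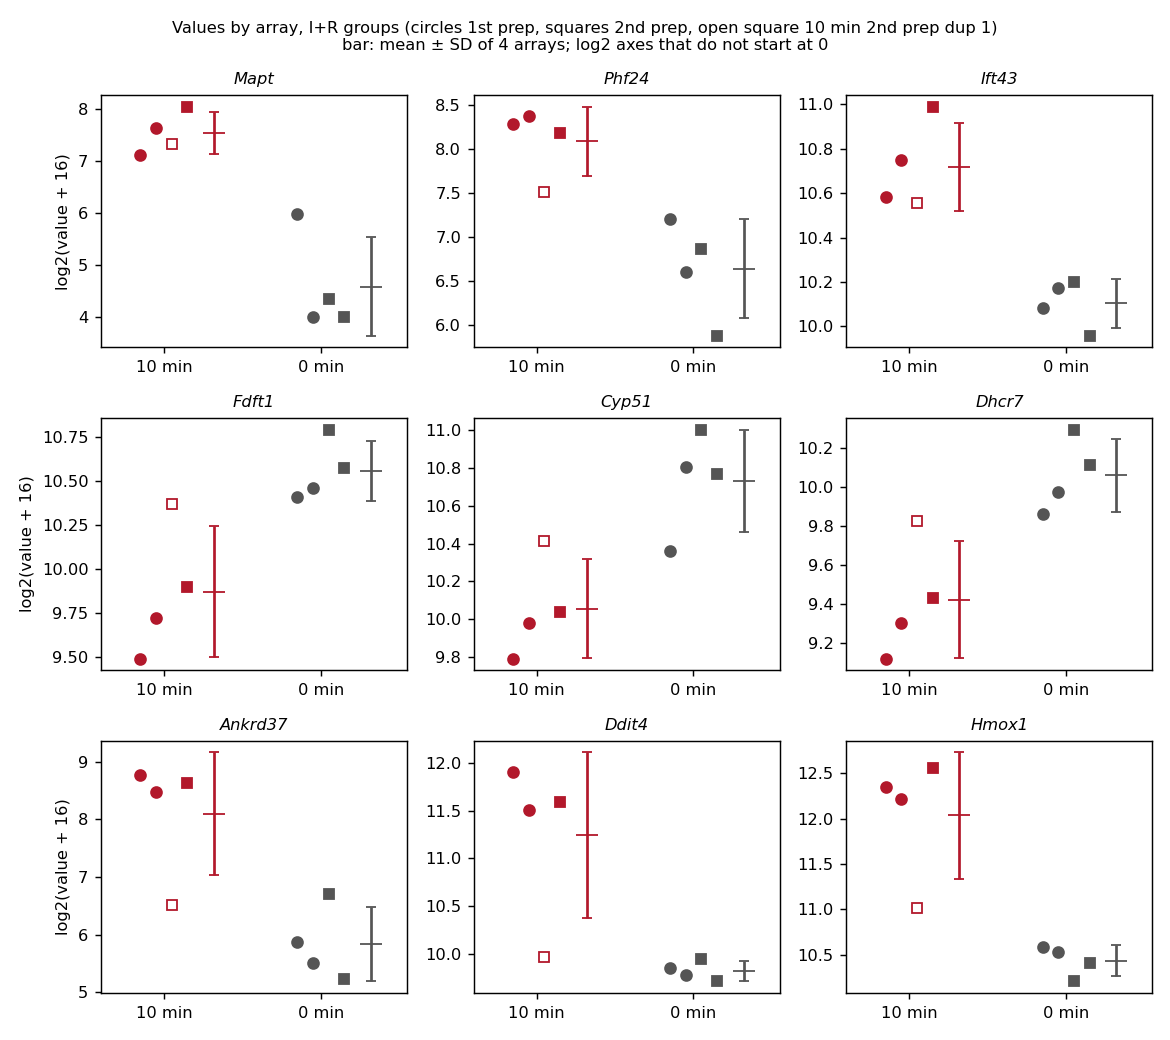
Log2 values of 9 genes in each array, 10 min of ischemia+reperfusion to the left of 0 min, with circles for preparation 1, squares for preparation 2 and an open square for the 10 min array of preparation 2, duplicate 1; bars are means ± SD of 4 arrays. The probe sets shown for Mapt, Phf24, Ift43, Fdft1 and Dhcr7 do not overlap between groups, and for Ddit4 the open square, at 9.97, lies beside the 0 min arrays.

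The sterol list held 30 genes of sterol synthesis and SREBP targets, of which 25 were tested and the others were not analysed here. All 25 had a difference below 0 in both preparations. Of the 25, 2 fell (Dhcr7 and Fdft1) and 23 did not pass, 0 rose, and 23 were lower at an unadjusted p under 0.05, against 5.9% of all probe sets. The median difference was -0.43, ranging from -0.83 to -0.11, against -0.01 over all probe sets. It was -0.48 in preparation 1 and -0.40 in preparation 2. Groups did not overlap for 6 members (4.69% of all probe sets were lower without overlap). Without the deviating array, 13 fell (0.693% of all probe sets) and the median was -0.54.

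By role, the upstream mevalonate enzymes gave some of the larger differences. Idi1, which isomerises isopentenyl diphosphate, read 10.24, 10.54, 11.42 and 10.53 at 10 min, against 11.36, 11.39, 11.80 and 11.53 at 0 min. Only the deviating array overlapped the 0 min arrays, and the difference was -0.83 ± 0.14 (adjusted p = 0.0545, and 0.00301 without that array). Acat2, the thiolase that joins acetyl groups at the start of the pathway, differed by -0.66 and Fdps, farnesyl diphosphate synthase, by -0.44. The kinases Mvk and Pmvk differed by -0.41 and -0.40, and the decarboxylase Mvd by -0.56. None of these passed with all 8 arrays. Without the deviating array Idi1, Acat2, Fdps and Pmvk passed, and Mvk and Mvd did not, each on its brightest probe set. The dimmer probe set of Mvk, 1387119_at, differed by -0.58 with all 8 arrays. It passed without the deviating array (adjusted p = 0.0367).

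Past squalene, Sqle, squalene epoxidase, differed by -0.41, and Lss, which closes the ring to lanosterol, by -0.56. Among the later enzymes the differences were -0.65 for Hsd17b7, -0.59 for Tm7sf2, -0.40 for Msmo1, -0.36 for Sc5d, -0.28 for Ebp and -0.24 for Nsdhl. On these brightest probe sets, all except Ebp and Nsdhl passed without the deviating array. The dimmer probe set of Nsdhl, 1392604_at, differed by -0.66 with all 8 arrays and passed without that array (adjusted p = 0.0445). The dimmer one of Hsd17b7, 1387233_at, differed by -0.59 and did not pass without that array (adjusted p = 0.152). The regulators of the pathway differed among themselves. Insig1, which retains the SREBP complex and is itself a target of SREBP, differed by -0.66 (adjusted p = 0.0545). Insig2, the other INSIG gene and a member of the HIF list, went the other way. Its probe sets 1389377_at and 1393690_at differed by 0.41 and 0.53 and passed only without the deviating array. Srebf2, which encodes SREBP-2, read 10.43, 10.58, 10.51 and 10.69 at 10 min, against 10.97, 10.82, 10.96 and 10.95 at 0 min. Its groups did not overlap and the deviating array was as low as the others, but the difference of -0.37 did not pass (adjusted p = 0.161). Srebf1, which encodes SREBP-1, and the desaturase Scd2 had the smallest differences of the sterol list, -0.19 and -0.11.

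The deviating array was less extreme for sterol genes, yet lay on the 10 min side of its own preparation. The median of the 25 members, each relative to its 0 min mean, was -0.70, -0.50, -0.16 and -0.43 in the 10 min arrays, against -0.18, -0.09, 0.18 and 0.07 in the 0 min arrays. The array of preparation 2, duplicate 1, was lower than both 0 min arrays of its preparation for 24 of 25 members, and the exception was Scd2. Among all probe sets that array was below both in 34.6%. The corresponding counts were 24, 25 and 25 for the other 10 min arrays, against 43.3%, 42% and 38.1% of all probe sets.

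**Figure D2:**
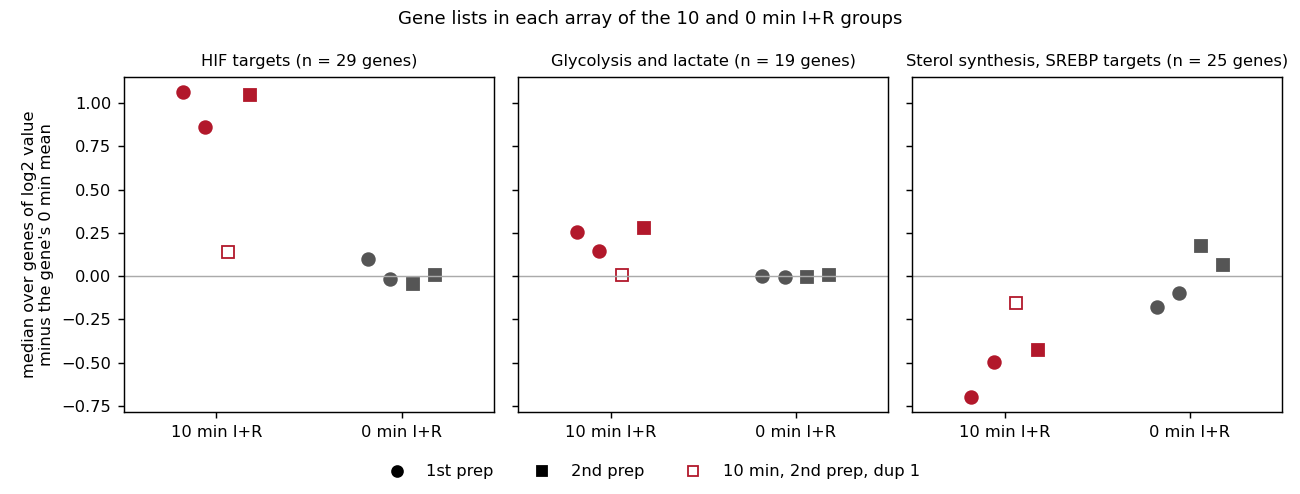
Median over the members of 3 gene lists of the log2 value minus the gene's 0 min mean, in each array, 10 min left of 0 min; circles are preparation 1, squares preparation 2, and the open square is the 10 min array of preparation 2, duplicate 1. For HIF targets 3 arrays at 10 min sit between 0.86 and 1.06 and the open square at 0.14; for sterol genes all 10 min arrays lie below the 0 min arrays of their own preparation.

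The HIF list held 33 targets of hypoxia-inducible factor, of which 29 were tested. Pfkfb4, Stc2 and Epo were below the filter, and Ppp1r3c was not analysed here. With all 8 arrays 0 of the 29 passed. At an unadjusted p under 0.05, 27 were higher and 0 lower, against 5.38% and 5.9% of all probe sets. The median difference was 0.74, from -0.28 to 2.91, with 0.96 in preparation 1 and 0.61 in preparation 2. Groups did not overlap for 13 members, all higher (3.38% of all probe sets). Without the deviating array 21 rose (1.18% of all probe sets), 0 fell, and the median was 0.96.

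That array carried most of the spread. The list median by array was 1.06, 0.86, 0.14 and 1.05 at 10 min, against 0.10, -0.01, -0.04 and 0.01 at 0 min. The array at 0.14 was above both 0 min arrays of its preparation for 18 of 29 members and below both for 5, where 32.5% and 34.6% of all probe sets were above and below. The other 10 min arrays were above both for 29, 28 and 28 members.

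Ankrd37, an ankyrin-repeat gene known as a HIF target, had the smallest p of the list. It read 8.77, 8.47, 6.51 and 8.63 at 10 min, against 5.87, 5.51, 6.71 and 5.23 at 0 min. The deviating array lay within the 0 min range, and the difference was 2.26 ± 0.38 (adjusted p = 0.0545, and 0.00258 without that array). The mitochondrial adenylate kinase gene Ak4 differed by the most, 2.91 ± 0.65, with values of 9.59, 9.44, 7.89 and 9.52 at 10 min, against 7.46, 6.88, 6.31 and 4.14 at 0 min. Its groups did not overlap, but the 0 min arrays spread widely, and it did not pass (adjusted p = 0.112). The lowest 0 min value, 4.14, lay just above the floor of the scale. The size of the Ak4 difference therefore depends in part on the number added before the log. Ddit4, an inhibitor of mTORC1, read 11.91, 11.50, 9.97 and 11.59 at 10 min, against 9.86, 9.78, 9.95 and 9.71 at 0 min. Its 0 min arrays were tight, the deviating array lay just above them, and the difference was 1.41 ± 0.27 (adjusted p = 0.0716, and 0.00221 without that array).

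The letters of the hypoxia response element, ACGTG, were searched on both strands in the 250 bases before the RefSeq gene start (GRCr8), in the first window listed for a gene. They were present for 13 of 24 HIF list members with a promoter in the table (54.2%), 3 of 20 sterol genes (15%), 1984 of 8757 genes tested (22.7%) and 4653 of 27457 promoters in the table (16.9%). HIF targets are in part known by this element, so this is a description of the list. The sterol response letters TCACNCCAC were in 0 of 20 sterol promoters and in 0.976% of the table. Promoters of 3 members with large differences are shown, 5′ to 3′ on the gene's strand, because they carry the element; capitals mark ACGTG or its reverse complement CACGT, which overlap where CACGTG stands. Ankrd37 is at chr16:53001257-53001506 (plus strand), Pfkfb3 at chr17:71944683-71944932 (plus strand) and Ddit4 at chr20:28437038-28437287 (minus strand).
Ankrd37: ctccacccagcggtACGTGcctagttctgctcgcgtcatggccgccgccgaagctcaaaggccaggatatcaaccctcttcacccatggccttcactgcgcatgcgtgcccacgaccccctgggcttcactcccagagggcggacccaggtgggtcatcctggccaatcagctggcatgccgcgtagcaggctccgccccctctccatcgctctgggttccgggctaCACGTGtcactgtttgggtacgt
Pfkfb3: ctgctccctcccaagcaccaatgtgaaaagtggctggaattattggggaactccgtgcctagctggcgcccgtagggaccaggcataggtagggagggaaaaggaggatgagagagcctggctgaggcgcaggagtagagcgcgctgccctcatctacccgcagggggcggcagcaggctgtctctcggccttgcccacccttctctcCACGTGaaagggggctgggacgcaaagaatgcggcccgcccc
Ddit4: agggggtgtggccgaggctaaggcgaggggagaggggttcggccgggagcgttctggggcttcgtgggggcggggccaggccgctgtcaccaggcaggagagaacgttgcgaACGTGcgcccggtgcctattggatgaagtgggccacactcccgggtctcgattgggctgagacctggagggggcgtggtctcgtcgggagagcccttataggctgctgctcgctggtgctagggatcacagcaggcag

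Pfkfb3, the second of these promoters, encodes an enzyme that makes an activator of glycolysis. It read 10.52, 10.24, 9.18 and 10.44 at 10 min, against 8.98, 8.77, 8.34 and 9.04 at 0 min. All 10 min arrays were higher, the deviating one by the least, and the difference was 1.31 ± 0.23 (adjusted p = 0.0623). Hmox1, heme oxygenase, is a target of both HIF and NRF2, the factor that answers oxidants. It read 12.35, 12.21, 11.01 and 12.56 at 10 min, against 10.59, 10.53, 10.20 and 10.41 at 0 min. Groups did not overlap, and the difference was 1.60 ± 0.32 (adjusted p = 0.084, and 0.0127 without the deviating array).

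Genes that feed back on oxygen sensing differed by 1.02 for Egln3 and 0.73 for Egln1, both prolyl hydroxylases, and by 0.88 for Kdm3a, an oxygen-dependent histone demethylase. Among mitochondrial genes, Bnip3 and Bnip3l, receptors for mitophagy, differed by 0.93 and 0.50, and Pdk1, the kinase that restrains pyruvate dehydrogenase, by 0.96. For secreted factors the difference was 0.74 for Vegfa, the vascular growth factor, and 0.63 for the peptide hormone adrenomedullin (Adm). Ndrg1 and Ero1a, an oxidase of the endoplasmic reticulum, differed by 1.67 and 1.07. None of these passed with all 8 arrays, and all but Bnip3l passed without the deviating array. The exception to the direction was Bhlhe41, a repressor of the circadian clock, at -0.28 ± 0.14 (adjusted p = 0.491), where its relative Bhlhe40 stood at 0.65. Bhlhe41 read 10.65, 10.40, 10.17 and 10.61 at 10 min, against 10.50, 10.51, 10.59 and 11.36 at 0 min. All 29 HIF targets were above 0 in preparation 1, so its negative sign came from preparation 2.

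**Figure D3:**
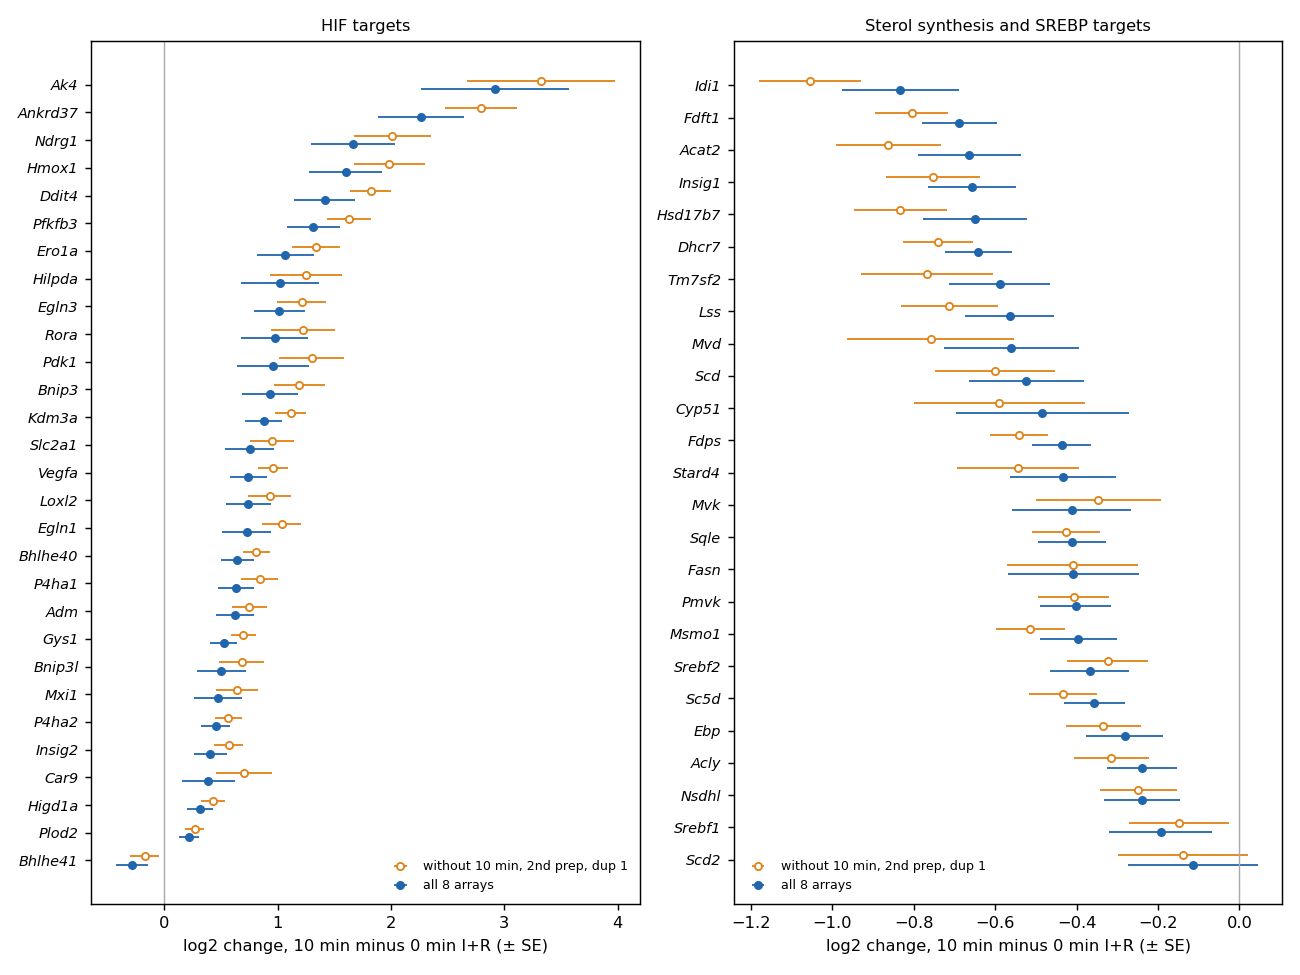
Log2 difference, 10 min minus 0 min of ischemia+reperfusion, with SE, of the 29 HIF targets and 25 sterol genes tested; filled blue points use all 8 arrays and open orange points leave out the 10 min array of preparation 2, duplicate 1. Every sterol gene lies below 0 and every HIF target except Bhlhe41 above 0.

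Of the 21 genes of glycolysis and lactate handling, 19 were tested and 0 passed with all 8 arrays. At an unadjusted p under 0.05, 9 were higher and 0 lower, against 5.38% and 5.9% of all probe sets. The median was 0.16, and 0.04 when duplicate 2 of preparation 2 was dropped at 10 min. The larger differences were of transporters and upper steps. Slc16a3, the lactate exporter MCT4, read 12.33, 12.10, 11.38 and 12.38 at 10 min, against 11.19, 11.18, 11.09 and 10.20 at 0 min, a difference of 1.13 ± 0.22 (adjusted p = 0.0754). Hk2, the inducible hexokinase, read 10.43, 9.88, 8.88 and 10.45 at 10 min, against 8.42, 8.36, 8.53 and 8.79 at 0 min, a difference of 1.39 ± 0.33 (adjusted p = 0.123). Neither gene overlapped between groups, and in both the deviating array was the lowest at 10 min.

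The phosphofructokinase genes differed by 0.92 for Pfkl, 0.36 for Pfkp and -0.11 for Pfkm. The glucose transporters Slc2a1 and Slc2a4 differed by 0.75 and 0.41. For the lower steps the differences were 0.30 for Tpi1, 0.16 for Pgk1, 0.07 for Aldoa, 0.04 for Eno1 and 0.00 for Ldha, none of which passed in either analysis. Without the deviating array 6 rose (1.18% of all probe sets), Slc16a3, Hk2, Pfkl, Pfkp, Slc2a1 and Slc2a4. Slc2a3, a glucose transporter outside the list, read 10.05, 10.06, 8.93 and 9.71 at 10 min, against 8.75, 8.67, 8.48 and 8.38 at 0 min, a difference of 1.12 ± 0.17 (adjusted p = 0.0545).

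Other genes close to the threshold came from several processes. Rgs4, which shortens signalling by G proteins, read 10.64, 10.17, 8.53 and 10.15 at 10 min, against 8.55, 8.40, 7.91 and 8.05 at 0 min. The deviating array fell just under the highest 0 min array, and the difference was 1.64 ± 0.28 (adjusted p = 0.0545). Angptl4, a secreted inhibitor of lipoprotein lipase, differed by 1.10, Gprc5b by 0.73, Septin6 by 0.66, Kremen1, a receptor in Wnt signalling, by 0.64, Jmjd6 by 0.56 and Slc35e1 by 0.51. On the lower side, Coq8a, needed for coenzyme Q synthesis, differed by -0.81, Pdlim2 by -0.71, Irgm2 by -0.56, Parp10 by -0.54 and Fam110b by -0.40. Each of these had an adjusted p of 0.0545 with all 8 arrays, and each passed without the deviating array. Septin6 and Fam110b each had a dimmer probe set, with differences of 0.38 and -0.23, that did not pass in either analysis. The other probe set of Rgs4 differed by 1.34 and passed without the deviating array.

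In the analysis without that array, each named gene was taken by its probe set with the smallest p. On these, the rises with the largest fitted size were of Ak4 (3.32), Ankrd37 (2.79), Rrad (2.08), Hunk (2.02), Mapt and Rnf207. Probe sets left out by this choice included 1391458_at of Ndrg1 (2.27), 1368079_at of Pdk1 (2.05) and 1368506_at of Rgs4 (2.05). These passed with larger rises than Hunk. Rrad, a small GTPase that restrains the cardiac calcium channel, turned on that array. It read 11.66, 11.34, 8.96 and 11.79 at 10 min, against 8.93, 8.93, 9.48 and 10.92 at 0 min. With all 8 arrays its difference was 1.37 ± 0.45 (adjusted p = 0.251), and without the array the adjusted p was 0.00831. By the same choice of probe sets, the falls with the largest fitted size were of Arrdc4 (-1.40), Upk3a (-1.39), Car3 (-1.20), Lrrc10 (-1.17), Idi1 (-1.06) and Aif1. Mapt, Rnf207 and Aif1 had values at the floor in some arrays, so their size and place in this order are not measured. The lowest 0 min value of Ak4, 4.14, lay just above the floor, so its size and place are uncertain too. Rnf207 passed on the dimmest of its 4 probe sets, and its other probe sets differed by 0.05, 0.25 and 0.22 without the array (adjusted p = 0.947, 0.732 and 0.734). Aif1, a macrophage marker, passed as lower on 1 of 2 probe sets, and the other differed by 0.10 without the array (adjusted p = 0.853). The other 9 macrophage markers did not pass.

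Arrdc4 and Txnip, arrestin-domain genes that follow glucose supply, both fell without the deviating array. Txnip read 10.94, 10.99, 12.01 and 11.26 at 10 min, against 12.09, 12.10, 12.08 and 12.05 at 0 min. The 0 min arrays lay close together, the deviating array was just under them, and the difference was -0.78 ± 0.21 with all 8 arrays (adjusted p = 0.176) and -0.97 without it (adjusted p = 0.0431). The median of the 6 members tested was -0.29.

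Other lists gave no call with all 8 arrays. Among 29 immediate early genes, the transcription factors and regulators that answer a stimulus first, 3 were higher and 1 lower at an unadjusted p under 0.05, against 5.38% and 5.9% of all probe sets, and the median was 0.08. Jun read 10.61, 10.60, 11.22 and 10.52 at 10 min, against 11.20, 11.23, 11.12 and 11.09 at 0 min, so that it fell only without the deviating array (-0.60, adjusted p = 0.0251). The medians were 0.03 for 24 heat shock genes, -0.02 for 25 NRF2 and antioxidant genes, 0.00 for 24 inflammatory genes, 0.04 for 20 sarcomere genes and -0.01 for 34 respiratory chain subunits. Members of other lists that passed without the deviating array, and are not described above, were the chaperones Hspa4l (1.01) and Hspb3 (0.54), Gclc (0.55) of glutathione synthesis, the chemokine Cxcl2 (1.22) and the clock gene Cry1 (0.44).

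The same labelled time in the arm of ischemia alone uses other arrays. There, 368 probe sets passed for 10 min against 0 min (1.98%). Of the probe sets that passed in ischemia+reperfusion, those of Ift43 (0.56, adjusted p = 0.0106) and Phf24 (1.17, 0.0166) also passed there as higher. So did 1374149_at (0.52, 0.0332), and that of Cyp51 passed as lower (-0.65, 0.0106). Those of Mapt, Fdft1 and Dhcr7 did not pass there (adjusted p = 0.168, 0.0672 and 0.124). HIF targets had a median difference of 0.74 in that arm, as in ischemia+reperfusion, and 7 passed as higher (1.14% of all probe sets), among them Ak4 (4.47), Ankrd37 (1.90) and Ero1a (1.54). The sterol list had a median of -0.24 with ischemia alone. On the brightest probe set of each gene, only Fdps passed there (-0.41, adjusted p = 0.0271, with 0.838% of all probe sets passing as lower). Cyp51 passed there on its dimmer probe set, 1387020_at, as given above. The difference between the arms was tested as the interaction, the change in ischemia+reperfusion minus the change in ischemia alone. It passed for 0 probe sets by limma, with 2284 at an unadjusted p under 0.05 (12.3%). For sterol genes its median was -0.30, with 8 of 25 members at an unadjusted p under 0.05, and for HIF targets it was -0.02, with 1 of 29.

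At 0 min, 1 of 25 sterol genes passed between the arms and 24 did not. The 0 min arrays of ischemia+reperfusion were higher than the 0 min arrays of ischemia alone by a median of 0.33 over the sterol list, and Sqle was the gene that passed (0.47, adjusted p = 0.0477, with 0.156% of all probe sets passing as higher). At 10 min the median difference of the arms was 0.05. For HIF targets the arms differed by a median of -0.05 at 0 min and -0.09 at 10 min. The 4 probe sets with the smallest interaction p were of Pik3ca (1.15, adjusted p = 0.055), Hsf2 (1.09, 0.055), Fa2h (-1.39, 0.055) and Nfkbil1 (-0.64, 0.0729). In ischemia+reperfusion itself these genes differed by 0.02, 0.18, 0.18 and -0.06, and with ischemia alone by -1.13, -0.91, 1.57 and 0.58. Without the deviating array 2 probe sets passed for the interaction (0.0107%), of Pik3ca and Mphosph8.

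**Figure D4:**
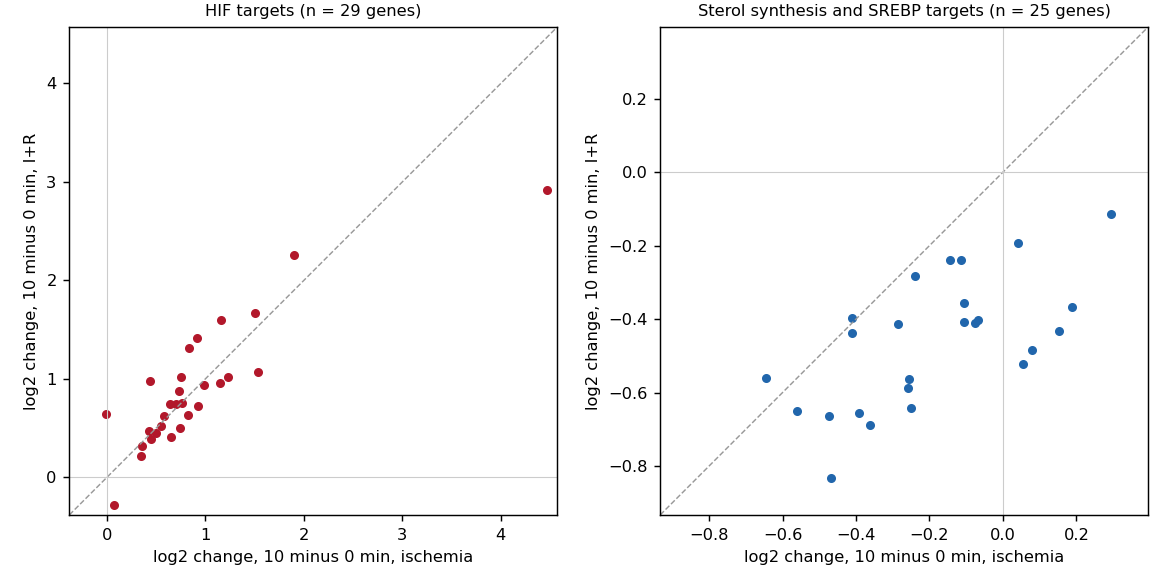
Log2 difference at 10 min minus 0 min in ischemia+reperfusion (vertical) against that in ischemia alone (horizontal) for 29 HIF targets and 25 sterol genes, each point a gene, with a dashed line of equal difference. HIF targets lie on both sides of the line around medians of 0.74 in each arm, and 23 of the 25 sterol genes lie below it.

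Later times of ischemia+reperfusion were compared with the same 4 arrays at 0 min, so these differences are not independent of those at 10 min. HIF targets had a median difference of 0.74 at 10 min, 0.81 at 30 min, 0.74 at 60 min and 0.78 at 120 min, with 0, 5, 12 and 15 members passing. The sterol list had medians of -0.43, -0.53, -0.58 and -0.47 at these times, with 2, 11, 16 and 13 members that fell. The median of immediate early genes was 0.08, 0.13, 0.37 and 0.80, with 0, 0, 10 and 16 that rose, and that of inflammatory genes was 0.00, 0.09, 0.30 and 0.41. Over all probe sets, 0.0215%, 0.408%, 2.19% and 3.5% rose and 0.0161%, 0.376%, 2.5% and 3.68% fell at these times. Fdft1 differed by -0.69, -0.84, -0.79 and -0.58, and Ankrd37 by 2.26, 2.45, 1.68 and 1.10.

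**Figure D5:**
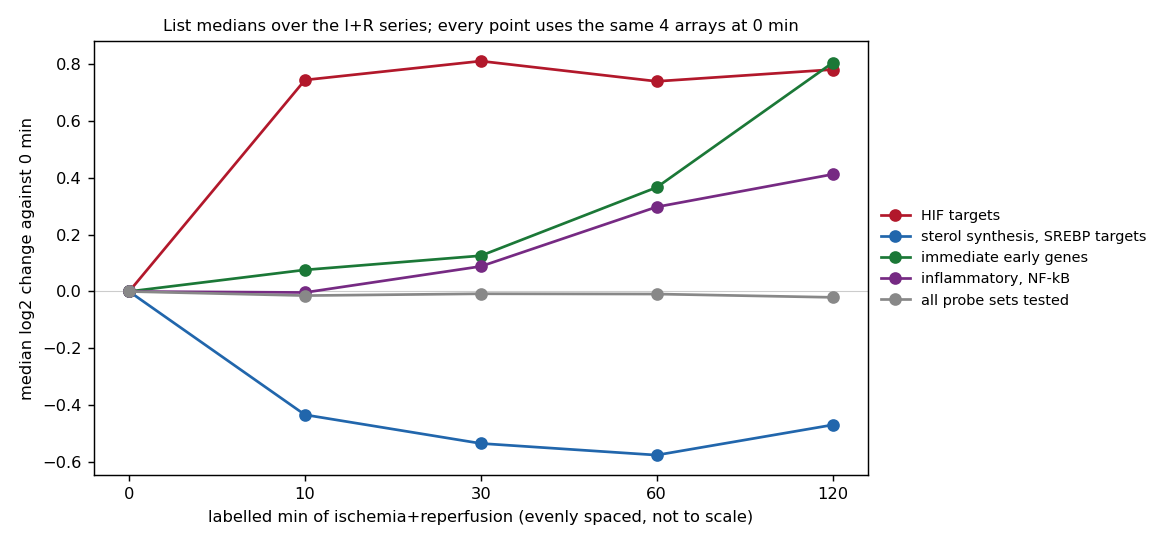
Median log2 difference from 0 min of ischemia+reperfusion for 4 gene lists and all probe sets at 10, 30, 60 and 120 labelled min, times evenly spaced; all points share the 4 arrays at 0 min. HIF targets and sterol genes stand near their later values at 10 min, 0.74 and -0.43, while immediate early genes stand at 0.08 at 10 min and 0.80 at 120 min.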

How the data were processed

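Total RNA was extracted on spin columns and made into biotin-labelled cRNA for rat genome Affymetrix arrays, per the labels' protocols. The authors deposited 1 table of probe set intensity values on a linear scale for 31042 probe sets and 40 arrays. Of these values 15.8% were negative, so a background signal had been subtracted; how probe set values were summarised and scaled is not given in the sources used here. Deposited medians were 138 to 171 in the 10 min arrays and 132 to 152 in the 0 min arrays. Genes were named only from the 20826 probe sets with 1 symbol in the platform annotation; 436 had several and 9780 none.

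The deposited intensity values were quantile-normalized between the 40 arrays, floored at 0 and turned into log2(value + 16), which understates changes at low intensity. The filter kept probe sets whose mean over all arrays exceeded its 40th percentile (6.48 on the log2 scale, an intensity of 73.2). This left 18625, of which 14311 had 1 symbol (10483 genes). In the 8 arrays 0.0349% of tested values lay at the floor. Duplicates were averaged to 20 values, and 10 group means with the preparation as an additive block were fitted with limma 3.58.1 in R 4.3.3 (lmFit, eBayes; 9 residual degrees of freedom, prior 2.27). The pairing by preparation comes from the titles. The preparation differences of the 10 min and 0 min groups correlated by 0.264, and by a median of 0.184 over 45 pairs of groups (-0.178 to 0.526). Tests were two-sided, and the script was tested on simulated data. Identical values were found in 0 pairs of arrays.

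The members, lists and tests were chosen with earlier results of these data known. The 30 lists held 633 genes, of which 538 were tested, by the brightest probe set of a gene. Named are the 12 genes a direction with the largest change among those passing, filled by the smallest p; in each list the passing members or up to 3 with the smallest p; 6 a direction without the deviating array; and 4 for the interaction. Other list members were described after their values were seen, as were the counts of arrays beyond both 0 min arrays of a preparation. Alternatives were the block, scale, pseudocount, filter, arrays as samples, fewer groups, probe set choice and leaving out each array; removal of the deviating array together with the block was added after the values were seen.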

Additional observations from a re-analysis of the deposited data

Results flagged for a closer look

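In 74 groups of 4 arrays, for 34 named probe sets and 3 list medians in the 10 min and the 0 min group, the highest or lowest array was tested for its gap to the rest, and 7 were flagged because that gap, as a share of the group's range, exceeded Dixon's 95% critical value. Chance flags about 1 in 20 groups, a rate that does not apply to genes named for their change without the deviating array, such as Ak4, Ankrd37, Rrad and Arrdc4, since that choice favours flags on it. In 5 of the 7 the array was the 10 min array of preparation 2, duplicate 1. It read 7.81 for Angptl4, where the other 10 min arrays read 8.77 to 8.82. For Ankrd37 it read 6.51, where the others read 8.47 to 8.77. For Ak4 it read 7.89, against 9.44 to 9.59 in the others, and for Rrad 8.96, against 11.34 to 11.79. For Arrdc4 it read 9.27, above the 8.04 to 8.20 of the others. The remaining flags were in 0 min arrays. Coq8a read 10.85 in preparation 2, duplicate 2, where the other 0 min arrays read 10.13 to 10.16, and Irgm2 read 9.78 in preparation 2, duplicate 1, where the others read 9.10 to 9.14.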

How the results depend on the processing

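The number of probe sets passing moved with most choices. With all 8 arrays it was 7; it was 2 with no replicate block, 29 on the deposited scale (28 higher, 1 lower, where the median of all probe sets shifted to 0.10), 34 with median centring, 46 with a pseudocount of 64, 23 with no filter on low values, 58 with the filter at the 60th percentile, 348 with arrays as samples and duplicate pairs as a random block, and 0 with the ischemia+reperfusion groups only or with the 2 groups only. At an adjusted p under 0.1 it was 130. Leaving out 1 array gave 1 to 348. Leaving out the deviating array with no replicate block, added after seeing the data, gave 140. Of the 348 with arrays as samples, 212 were among the 348 without the deviating array. The fit with arrays as samples used a duplicate correlation of 0.0781, so it counted duplicates almost as separate samples. Both fits share every array except the deviating one, so this overlap is no independent evidence.

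HIF targets passing numbered 0, and 3 on the deposited scale, 1 with median centring, 2 with a pseudocount of 64, 3 at the 60th percentile, 18 with arrays as samples, 5 at an adjusted p under 0.1, 0 to 21 with 1 array left out, and 18 without the deviating array and block. Glycolysis genes passing numbered 0, and 1 on the deposited scale, 6 with arrays as samples, 1 at an adjusted p under 0.1, 0 to 6 with 1 array left out, and 4 without the deviating array and block. Sterol genes passing numbered 2, and 0 with no replicate block, on the deposited scale, and with fewer groups, 5 with a pseudocount of 64, 7 at the 60th percentile, 13 with arrays as samples, 11 at an adjusted p under 0.1, 0 to 13 with 1 array left out, and 4 without the deviating array and block. The interaction passed for 3 probe sets with median centring, for 0 to 9 with 1 array left out, and for 2 without the deviating array and block. Why the counts moved was not tested, apart from the smaller number of samples or probe sets in some settings.

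Over 21 alternatives, list medians kept their sign and ran from 0.55 to 0.96 for HIF targets, 0.04 to 0.26 for glycolysis and -0.54 to -0.30 for sterol genes. Precision is limited by 2 preparations, by the filter on dim probe sets and by a floor that hides changes of dim ones.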
